A study of Drosophila melanogaster with 21 samples.

Results

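Gene expression was compared between brains of young (3d) and older (20d) male control flies of set 1, the experiment in which these controls were profiled beside miR-34 mutants. The comparison rested on 6 of the 21 libraries of the series, 3 from 3d control brains and 3 from 20d control brains, and took in every gene of the count table. Each library was made from polyA-selected RNA of a separate pool of 20 dissected brains. The controls carry the genotype that the labels give as 5905 (Control), and both ages share this genotype, so no transgene or mutation separated the groups. The labels give molasses food at 25 °C and the methods of the study 26 °C. The other libraries came from miR-34 mutant brains of both ages in set 1 and from control brains of 3d, 20d and 50d in set 2, an additional experiment that shares no library with set 1.

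The fly brain holds neurons, several kinds of glia and a thin sheath of glial and matrix layers that forms the blood-brain barrier. Neurons draw most of their ATP from mitochondrial respiration, in which electrons from NADH and succinate pass through the respiratory complexes to oxygen and the proton gradient drives ATP synthase. Small groups of neurosecretory and clock neurons make neuropeptides from precursor proteins, and astrocyte-like glia take up glutamate and GABA from synapses. In a bulk library, fewer cells of a type and less RNA per cell cannot be told apart.

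The labelled tissue was checked against marker genes. The 9 neuronal markers (elav, nSyb, brp and others) summed to 8249 to 8899 CPM at 3d and 7883 to 9492 CPM at 20d, where CPM is counts per 1000000 counts of the library. The 12 photoreceptor markers of the eye, opsins and their signalling proteins, summed to 41449.8 to 57280.0 CPM at 3d and 34000.3 to 56711 CPM at 20d, none was at 0, and edgeR called none of the 12 in either direction (2 had an unadjusted p under 0.05, and DESeq2 called 1 lower). The 10 fat body markers gave 2358 to 3349 and 2271 to 3235 CPM, with Fbp2 at 0 in every 20d library, and the 10 muscle markers gave 126 to 166 and 129 to 221 CPM. The 64 genes of the male accessory gland and testis summed to at most 23.8 CPM in any of the 6 libraries. The 21 gut protease genes reached 75.6 CPM in 20d library 2 and 18.05 CPM in 3d library 2, and were otherwise at most 3.72 CPM. RNA of the eye, fat body and other tissue was measurable in these libraries, and its part in the results below was not tested.

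Total counts ran from 19102856 to 21665398 in the 3d libraries and from 21006740 to 22197164 in the 20d libraries. Of 15114 genes with any count in set 1, 9961 passed the filter on low counts and were tested with edgeR's quasi-likelihood test, and genes with a Benjamini-Hochberg p_adj under 0.05 are called significant. Levels are given as CPM (here after TMM scaling) in libraries 1, 2 and 3 of each age, a log2 fold change is that of 20d against 3d with its SE after ±, and a lone signed number in parentheses after a gene is its log2 fold change. The fit took its spread from all 12 libraries of set 1, mutants included. At 20d, 1124 genes were significantly upregulated (11.3% of the genes tested) and 1327 significantly downregulated (13.3%), together 24.6%. A fit of the 6 control libraries alone called 743 up and 1060 down. Among called genes the typical change was small, with a median absolute log2 fold change of 0.37. In all, 602 genes changed at least 1.5-fold (297 up and 305 down) and 280 at least 2-fold (151 up and 129 down). In 2375 of the 2451 called genes the 3d and 20d libraries did not overlap. For comparison, the 20d libraries lay above all 3d libraries in 18.8% of all genes tested and below them in 19.4%, and a single gene cannot give an exact permutation p under 0.1 with 3 libraries a group. The first principal component of the 500 most variable genes held 52.3% of the variance and placed the 3d libraries between -18.5 and -13.5 and the 20d libraries between 11.9 and 18.6. Counts depended on single libraries. The number of upregulated genes was 651 without 3d library 1, 740 without 3d library 2 and 665 without 20d library 3, and the number of downregulated genes was 883 without 20d library 3. Recovery was examined in a single draw of simulated counts with the means and library sizes of this comparison. Of 9844 genes tested there, 60 were changed 2-fold, 70 1.5-fold and 70 1.3-fold, and 73.3%, 64.3% and 18.6% of these were recovered. Far more genes were called in the data, which makes the Benjamini-Hochberg cutoff less strict, so these shares are not the recovery in the data. Small changes can still be missed at this depth and replication.

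Calls in set 1 followed transcript length. Among the shortest quintile of genes (exons summing to 65 to 1121 bases), 4.33% were upregulated and 21.5% downregulated, with a median log2 fold change of -0.12. In the longest quintile (4139 to 71820 bases), 28.5% were upregulated and 5.84% downregulated, with a median of 0.13. Libraries differed in this trend. The difference between the median deviations of the longest and the shortest quintile (log2) was -0.27 in 3d library 1, -0.084 in 3d library 2 and -0.053 in 3d library 3, and 0.25, -0.025 and 0.18 in 20d libraries 1, 2 and 3. In set 2 the trend ran the other way, with 20.4% of the shortest and 15.2% of the longest quintile upregulated. An alternative fit, added after the data were seen, removed each library's own trend with exon length. It called 896 genes up and 1213 down, 1765 of them shared with the 2451, and gave 8.36% up and 12.1% down in the shortest quintile against 12.1% and 13.3% in the longest. A fit without 3d library 1 and 20d library 1, the libraries at the ends of the trend, called 476 genes up and 768 down. Below, named calls that the length-corrected fit ended are given, and those that were lost in the fit without both first libraries but in no fit with a single library left out.

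**Figure D1:**
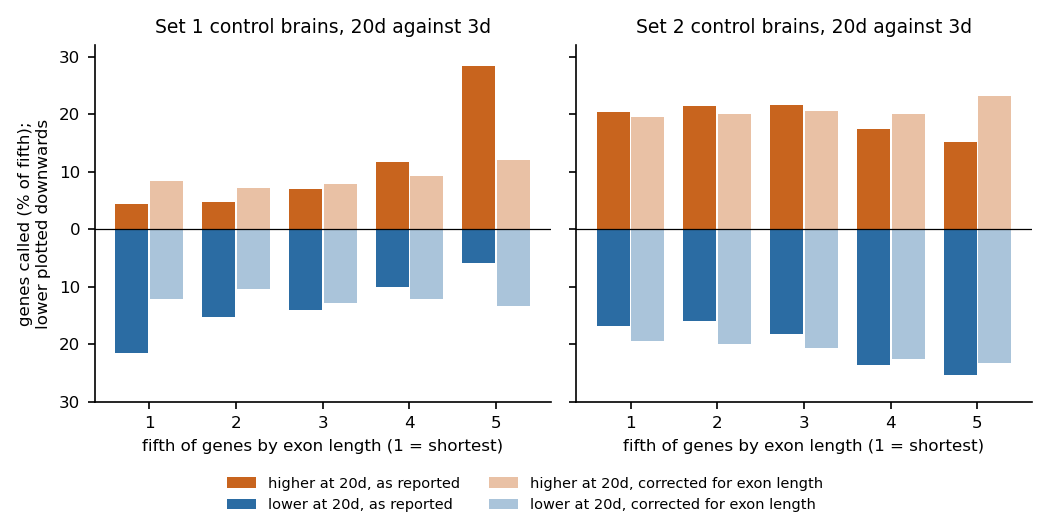
Share of genes called higher (bars upwards) or lower (bars downwards) at 20d than at 3d, in % of each quintile of genes ranked by exon length, for control brains of set 1 (left) and set 2 (right), as reported (dark bars) and after correction of each library for its trend with exon length (light bars). In set 1 the upregulated share rises from 4.33% in the shortest quintile to 28.5% in the longest, and to 12.1% after correction, while in set 2 it falls from 20.4% to 15.2%.

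The largest rises came from a mixed group of secreted, neuronal and digestive genes. Lsp1alpha, a subunit of a larval serum storage protein made by fat body, was at 4.53, 2.18 and 1.09 CPM at 3d and 32.4, 56.9 and 28.8 CPM at 20d, and every 20d library exceeded every 3d library (log2 fold change 3.94 ± 0.49, p_adj = 0.0019). The antennal protein gene a10 was at 4.26, 4.56 and 7.06 CPM at 3d and 70.1, 81.2 and 77.0 CPM at 20d, again without overlap (log2 fold change 3.84 ± 0.58, p_adj = 0.0023). Arc1, which encodes a Gag-like protein that forms capsids and carries its own mRNA between cells, was at 164, 153 and 84.1 CPM at 3d and 338, 594 and 510.1 CPM at 20d (log2 fold change 1.85 ± 0.35, p_adj = 0.0066). The neighbouring pseudogene CR10102, which lies between Arc1 and Arc2 and may share reads with them, was at 18.8, 16.2 and 8.96 CPM at 3d and 37.2, 58.5 and 57.2 CPM at 20d (log2 fold change 1.80 ± 0.34, p_adj = 0.0064), and Arc2 rose less (log2 fold change 0.74 ± 0.22, p_adj = 0.029, the ages overlapping). The clock repressor gene vri was at 7.82, 9.07 and 9.10 CPM at 3d and 18.6, 31.6 and 22.1 CPM at 20d, and all 20d libraries lay above all 3d libraries (log2 fold change 1.48 ± 0.21, p_adj = 7.1e-04). Hr38, another activity-regulated gene, was at 31.8, 45.4 and 26.6 CPM at 3d and 22.7, 23.5 and 255 CPM at 20d and thus high in 20d library 3 alone (log2 fold change 1.53 ± 1.17, p_adj = 0.39, and the direction reversed without that library, at -0.58).

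Amy-p and Amy-d, near-identical alpha-amylase genes between which reads can be split, rose. Amy-p was at 38.1, 46.5 and 18.4 CPM at 3d and 73.0, 171 and 116 CPM at 20d (log2 fold change 1.81 ± 0.47, p_adj = 0.025). Amy-d was at 33.4, 36.9 and 17.5 CPM at 3d and 54.2, 107 and 75.7 CPM at 20d (log2 fold change 1.43 ± 0.42, p_adj = 0.039). CG12256 was at 39.5, 26.2 and 22.0 CPM at 3d and 161, 169.7 and 168 CPM at 20d (log2 fold change 2.51 ± 0.20, p_adj = 3.5e-05), and CG34227 at 10.8, 8.28 and 9.67 CPM at 3d and 26.3, 51.1 and 38.7 CPM at 20d (log2 fold change 2.01 ± 0.35, p_adj = 0.0041). CG12256 shares exons with asRNA:CR43477 on the other strand, and the strand setting of the counting is not given, so its reads cannot be assigned with certainty. The other genes of this group were CG11125 (1.45), whose exons overlap Fa2h on the opposite strand, and the long noncoding RNAs lncRNA:CR45054 (2.07) and lncRNA:CR46481 (1.63). With single libraries left out, p_adj rose above 0.05 for Arc2 (p_adj up to 0.11) and Amy-p (p_adj up to 0.066) without any library except 3d library 2 and 20d library 1 and for Amy-d (p_adj up to 0.11) without any library except 20d library 1.

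The largest falls included genes known from olfaction, carotenoid uptake, yolk and blood cells. Obp56d, an odorant-binding protein gene, was at 29.5, 27.2 and 11.2 CPM at 3d and 0.620, 1.16 and 3.09 CPM at 20d (log2 fold change -3.81 ± 0.64, p_adj = 0.0034). CG11368 followed the same order of libraries, at 25.3, 21.6 and 8.96 CPM at 3d and 0.537, 0.806 and 2.74 CPM at 20d (log2 fold change -3.78 ± 0.72, p_adj = 0.0062). In both genes library 3 was the lowest of the 3d libraries and the highest of the 20d libraries. ninaD, a scavenger receptor that takes up carotenoids for visual pigment synthesis, was at 8.03, 8.67 and 11.8 CPM at 3d and 1.45, 2.10 and 2.02 CPM at 20d (log2 fold change -2.36 ± 0.20, p_adj = 1.2e-05). PPO1, a prophenoloxidase stored in the crystal cells of the blood, was at 85.1, 50.7 and 72.7 CPM at 3d and 11.3, 21.5 and 17.9 CPM at 20d (log2 fold change -2.04 ± 0.36, p_adj = 0.0046). The yolk protein gene Yp3, known from the fat body and follicle cells of females, was at 42.7, 62.0 and 34.4 CPM at 3d and 14.7, 15 and 13.5 CPM at 20d (log2 fold change -1.69 ± 0.31, p_adj = 0.0047). The gene with the highest level per kilobase of exon among the 12 largest falls, CG9512 (215 CPM per kb), was at 754, 668 and 765 CPM at 3d and 169, 334 and 176 CPM at 20d (log2 fold change -1.69 ± 0.27, p_adj = 0.0026). CG13305 (-2.23), CG13360 (-2.12, with tw on the opposite strand), CG16820 (-2.02), CG42326 (-1.77), CG13082 (-1.68) and CG10553 (-1.67) completed the 12 largest falls, all without overlap between the ages. Without both first libraries CG11368 missed the threshold.

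**Figure D2:**
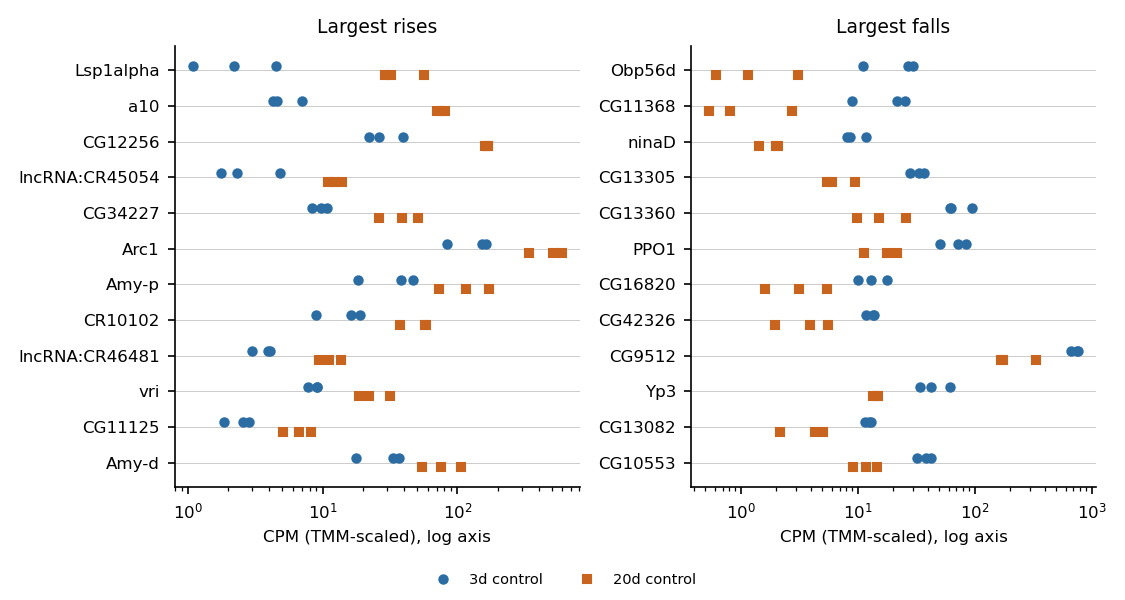
TMM-scaled CPM (log axis) of the 12 genes with the largest rise (left) and the 12 with the largest fall (right) in each 3d control library (blue circles) and each 20d control library (orange squares) of set 1, with 3 libraries an age. The groups do not overlap in any of the 24 genes, which was part of the rule that chose them; Lsp1alpha and a10 rise across much of the left panel and Obp56d and CG11368 fall across much of the right.

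Nuclear genes of the respiratory chain fell together. All 27 tested genes of complex I, which takes electrons from NADH, were significantly downregulated (of 34 in the table), with a median log2 fold change of -0.56 where the median of all genes tested was 0.00. Of the 79 gene lists examined, this was the only one of which every tested member was called in this fit. The falls ranged from -0.23 for ND-75 to -0.71 for ND-MLRQ. ND-MLRQ was at 336, 303 and 313 CPM at 3d and 179, 215 and 185 CPM at 20d (log2 fold change -0.71 ± 0.07, p_adj = 1.4e-05), and ND-75, which carries iron-sulfur clusters of the electron path, at 362, 366 and 389 CPM at 3d and 308, 318 and 328 CPM at 20d (log2 fold change -0.23 ± 0.06, p_adj = 0.011). Of 40 tested genes of complexes II to V, 35 fell and 1 rose, with a median of -0.57. UQCR-11 of complex III was at 164, 166 and 160.3 CPM at 3d and 83.1, 101 and 88.5 CPM at 20d (log2 fold change -0.84 ± 0.07, p_adj = 1.2e-05), and ATPsynC, the rotor ring of ATP synthase, at 1507, 1506 and 1498 CPM at 3d and 904, 1009 and 924 CPM at 20d (log2 fold change -0.67 ± 0.06, p_adj = 1.1e-05). The electron carrier Cyt-c-p was at 409, 366 and 382 CPM at 3d and 232, 255 and 254 CPM at 20d (log2 fold change -0.64 ± 0.06, p_adj = 1.2e-05). SdhA, the catalytic subunit of succinate dehydrogenase, changed least among the genes that fell (log2 fold change -0.17 ± 0.05, p_adj = 0.029). The only rise was in COX4L (1.26), 1 of the 5 members that were not called lower, each with a mean under 1 CPM.

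Respiratory genes are short, with 46 of 67 in the shortest quintile and a median exon length of 871 bases against 2100 for all genes tested. Among the other 1941 genes of the shortest quintile, 19.9% were downregulated. Most falls of the respiratory genes were also called in the alternative fits. All 27 genes of complex I were called lower in the length-corrected fit, in the fit without both first libraries and with each library left out, and 34 to 36 genes of complexes II to V were called lower with each library left out (35 after length correction). The fall of SdhA was not called without 3d library 1, 3d library 3 or 20d library 3 (p_adj up to 0.115). It was also lost in the fit of the 6 control libraries alone and without both first libraries. The single rise, of COX4L, was lost without 3d library 1, 3d library 3, 20d library 1, 20d library 2 or 20d library 3. In set 2, 27 of 28 genes of complex I and 36 of 42 of complexes II to V fell, with medians of -0.56 and -0.57.

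Transcripts of the mitochondrial genome did not move together. The share of all counts that they took was 12.1% to 14.4% at 3d and 7.27% to 9.39% at 20d (3 libraries each). Of 19 tested, 8 fell and 4 rose. The ribosomal RNAs mt:lrRNA (log2 fold change -1.08 ± 0.12, p_adj = 3.7e-05) and mt:srRNA (log2 fold change -1.41 ± 0.15, p_adj = 1.2e-04) had the largest falls, and mt:CoIII (log2 fold change -0.67 ± 0.11, p_adj = 7.3e-04) and mt:CoII (-0.44) fell less. mt:lrRNA was at 91336, 77842 and 81805 CPM at 3d and 33798, 47186 and 37558 CPM at 20d, without overlap between the ages. The subunit gene mt:ND2 was at 24.3, 19.7 and 17.4 CPM at 3d and 23.7, 59.5 and 87.8 CPM at 20d (log2 fold change 1.48 ± 0.40, p_adj = 0.029, the ages overlapping) and rose together with mt:tRNA:Ile-GAT, mt:tRNA:Gln-TTG and mt:tRNA:Trp-TCA, tRNA genes that flank it. These transcripts lie on a compact genome with adjoining genes, and reads across their borders can be assigned to either neighbour. Leaving the mitochondrial genome out of the counts gave 1067 genes up and 1388 down. The call was lost for mt:ND2 (p_adj up to 0.092) without any library except 20d library 1 and for mt:CoI (p_adj up to 0.11) without 3d library 1, or 20d library 1 or 3. The fit without both first libraries ended the call of mt:CoII. The number of falls was 4 without 3d library 1.

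Energy metabolism around the respiratory chain fell as well. In the tricarboxylic acid cycle, which feeds NADH to complex I, 12 of 18 tested genes fell (median -0.28). The citrate synthase gene kdn was at 538, 605 and 625 CPM at 3d and 336, 396 and 390.0 CPM at 20d (log2 fold change -0.66 ± 0.08, p_adj = 6.7e-05), and Idh3a, the catalytic subunit of NAD-dependent isocitrate dehydrogenase, at 309, 302 and 319.6 CPM at 3d and 206, 208 and 206 CPM at 20d (log2 fold change -0.59 ± 0.05, p_adj = 5.1e-06). The other 6 genes of the cycle were not called. In glycolysis 7 of 13 genes fell, led by Pglym78 (log2 fold change -0.44 ± 0.06, p_adj = 1.6e-04) and Gapdh1 (log2 fold change -0.44 ± 0.08, p_adj = 0.0021). Lactate dehydrogenase gave the only called rise in its list. Ldh was at 4.10, 5.402 and 7.02 CPM at 3d and 12.6, 18.2 and 13.2 CPM at 20d, with all 20d libraries above all 3d libraries (log2 fold change 1.41 ± 0.19, p_adj = 2.7e-04). The outer membrane channel gene porin fell with the respiratory genes (log2 fold change -0.63 ± 0.06, p_adj = 1.2e-05). Of 17 tested subunits of the vacuolar ATPase, the proton pump that acidifies lysosomes and synaptic vesicles, 11 fell (median -0.28), from -0.16 for Vha44 to -0.53 for Vha14-1. In leave-one-out fits the threshold was missed for Vha44 (p_adj up to 0.1) without any library except 3d library 1. The number of glycolytic genes called lower was 3 without 20d library 1 and 4 without 3d library 1. After length correction, 13 genes of the cycle, 7 of glycolysis and 11 of the vacuolar ATPase were called lower.

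Among genes of protein synthesis, most mitochondrial ribosomal proteins fell and most cytoplasmic ones were not called. The difference between these lists was not tested. Of 72 tested mitochondrial ribosomal proteins, 54 fell (median -0.37), 37 to 49 with each library left out and 24 after length correction. Of 82 tested cytoplasmic ribosomal proteins, 3 rose and 6 fell (median 0.00). The rises were RpS5b (1.86), a paralog best known from the germline, sta (0.43) and RpL23A (0.21), and the largest fall was that of RpL41 (-0.46). These genes are short, and after length correction 30 of them were called higher and 4 lower. Among 46 translation factors, 18 fell (39.1%) and 4 rose (median -0.17), and 16 and 2 after correction. Factors that fell included eIF3l (log2 fold change -0.53 ± 0.05, p_adj = 1.8e-05) and eIF3k (log2 fold change -0.52 ± 0.05, p_adj = 2.8e-05), subunits of the initiation complex eIF3, the elongation factor eEF2 (-0.27), the helicase eIF4A (-0.23) and the cap-binding protein eIF4E1 (-0.26). eIF4E6, a further member of the cap-binding family, had the largest rise (log2 fold change 0.72 ± 0.15, p_adj = 0.0033). Of 32 proteasome subunits only Rpn12 was called (log2 fold change -0.26 ± 0.09, p_adj = 0.049, the ages overlapping), while after length correction 3 rose and 0 fell. In the cytosolic chaperonin, which folds actin and tubulin, CCT5 (log2 fold change 0.52 ± 0.12, p_adj = 0.0099) and CCT7 (log2 fold change 0.50 ± 0.11, p_adj = 0.0051) rose and the other 6 subunits were not called. The number of rises was 5 without 20d library 2, and 1 in the fit of the 6 control libraries alone, in which CCT5 was not called. Leave-one-out fits gave p_adj above 0.05 for RpL23A (p_adj up to 0.17) without any library except 3d library 1 and 20d library 1, for eIF4A (p_adj up to 0.066) without any library except 3d library 2 and 20d library 2 and for Rpn12 (p_adj up to 0.19) without any library except 3d library 3 and 20d library 2. After length correction Rpn12 missed the threshold. With both first libraries left out, eEF2 no longer passed. The number of cytoplasmic ribosomal proteins that fell was 2 without 3d library 1 or 20d library 3, 3 without 20d library 1 and 17 without 20d library 2.

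**Figure D3:**
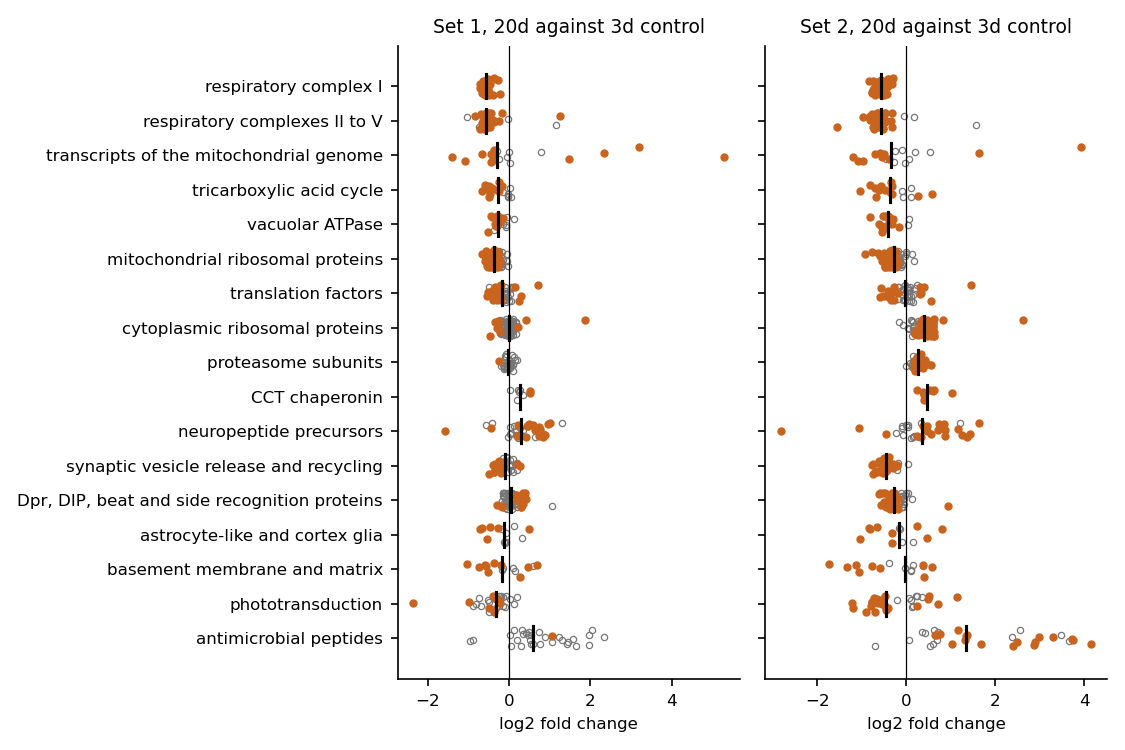
Log2 fold change (20d against 3d control) of each tested member of 17 gene lists in set 1 (left) and set 2 (right). Filled orange points were called at p_adj under 0.05, open grey points were not, and black bars are list medians; vertical jitter only separates points. Complex I lies wholly below 0 in both sets, while cytoplasmic ribosomal proteins centre on 0.00 in set 1 and lie mostly above 0 in set 2.

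Neuropeptide precursors rose in large part. Of 34 tested (40 in the table), 17 rose (50.0%, against 11.3% of all genes) and 2 fell, with a median of 0.31. Crz, the precursor of corazonin, a stress and metabolic hormone of lateral neurosecretory cells, was at 65.0, 51.5 and 57.1 CPM at 3d and 124, 122 and 104 CPM at 20d (log2 fold change 1.01 ± 0.09, p_adj = 1.2e-05). Mip, the precursor of myoinhibitory peptides, was at 79.3, 78.5 and 77.6 CPM at 3d and 180.5, 127 and 153 CPM at 20d (log2 fold change 0.97 ± 0.10, p_adj = 4.2e-05). Pdf, the peptide through which clock neurons keep each other in phase, was at 140.0, 112 and 108 CPM at 3d and 195, 210.0 and 209 CPM at 20d (log2 fold change 0.77 ± 0.09, p_adj = 5.1e-05). The 3d and 20d libraries did not overlap for any of these precursors. NPF, the fly relative of neuropeptide Y, was at 61.7, 61.2 and 55.9 CPM at 3d and 93.1, 90.8 and 87.4 CPM at 20d (log2 fold change 0.60 ± 0.08, p_adj = 1.9e-04). Orcokinin (0.90), Hug (0.85) and Dh44 (0.85) rose as well, and the widely expressed sNPF (0.43) and Tk (0.21) rose less. Against this direction, SIFa, made by a small group of neurons of the pars intercerebralis, was at 25.9, 23.1 and 26.4 CPM at 3d and 19.4, 19.5 and 16.4 CPM at 20d (log2 fold change -0.45 ± 0.08, p_adj = 0.0021), and Nplp3 was at 26.9, 30.0 and 24.6 CPM at 3d and 7.69, 12.3 and 7.18 CPM at 20d (log2 fold change -1.58 ± 0.22, p_adj = 8.3e-04). The proctolin precursor Proc was not called in set 1 (0.03). Between 14 and 18 precursors were called higher with each library left out, with 19 after length correction and 15 without both first libraries. In set 2, 18 precursors rose and 4 fell. Significance was lost for Tk (p_adj up to 0.064) without 3d library 1 or 20d library 3.

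**Figure D4:**
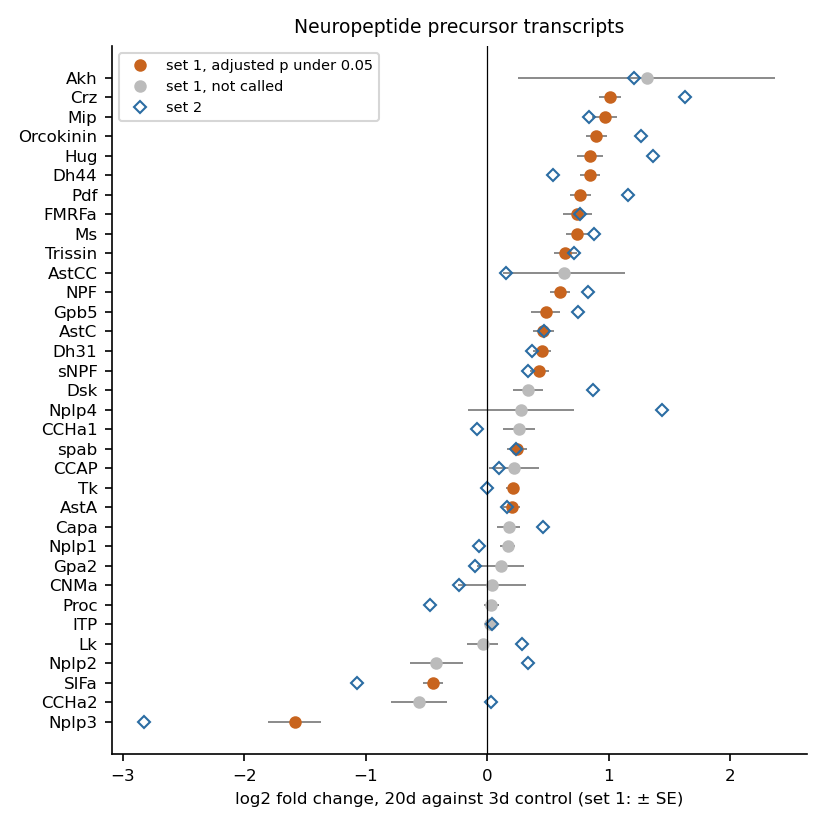
Log2 fold change of the 34 tested neuropeptide precursors, 20d against 3d control. Circles are set 1 with ± 1 SE (orange where p_adj was under 0.05, grey otherwise) and open diamonds are set 2. Most precursors lie to the right of 0 in both sets, and Nplp3 and SIFa lie to the left in both.

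Receptors for neuropeptides rose in smaller number. Of 38 tested, 11 rose (28.9%, against 11.3% of all genes) and 1 fell (median 0.20). SIFaR, the receptor of the SIFa peptide, was at 27.0, 27.5 and 26.8 CPM at 3d and 43.5, 38.4 and 44.2 CPM at 20d (log2 fold change 0.63 ± 0.09, p_adj = 3.2e-04), in the direction opposite to its ligand. Lgr3, a receptor of relaxin-like insulin peptides, was at 3.83, 4.21 and 4.88 CPM at 3d and 6.12, 6.04 and 7.18 CPM at 20d (log2 fold change 0.58 ± 0.14, p_adj = 0.0082), and CrzR, the corazonin receptor, rose by 0.43. Proc-R was the receptor that fell (log2 fold change -0.31 ± 0.06, p_adj = 0.0024). The number of rises was 7 without 3d library 1, 3d library 2 or 20d library 3, 10 after length correction and 2 without both first libraries, and in set 2, 5 receptors rose and 11 fell. In the insulin pathway the ligand genes of the insulin-producing cells moved in opposite directions. Ilp3 was at 12.1, 11.9 and 9.06 CPM at 3d and 4.22, 2.37 and 4.26 CPM at 20d (log2 fold change -1.60 ± 0.23, p_adj = 7.7e-04), whereas Ilp2 was at 209, 157 and 168 CPM at 3d and 245, 222 and 221 CPM at 20d (log2 fold change 0.37 ± 0.10, p_adj = 0.02). The receptor gene InR was at 62.4, 70.3 and 69.7 CPM at 3d and 122, 96.5 and 104 CPM at 20d (log2 fold change 0.67 ± 0.08, p_adj = 1.0e-04). The secreted insulin binders ImpL2 (-0.45) and Sdr (-0.29) and the glial and fat body ligand Ilp6 (-0.37) fell. Leaving out single libraries ended the call for Ilp2 (p_adj up to 0.077) without 3d library 2 or 3, or 20d library 1, for ImpL2 (p_adj up to 0.15) without any library except 20d library 3, for Sdr (p_adj up to 0.16) without any library except 20d library 2 and for Ilp6 (p_adj up to 0.15) without any library except 3d library 2 and 20d library 2. Length correction ended the call of ImpL2 and Ilp6. Without both first libraries Lgr3 missed the threshold.

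Genes of synaptic vesicles fell more often than they rose. Of 29 tested genes of vesicle release and recycling, 11 fell and 2 rose (median -0.09). cpx, which clamps vesicle fusion, was at 3699.5, 4217 and 4041 CPM at 3d and 2704, 2927 and 2901 CPM at 20d (log2 fold change -0.49 ± 0.07, p_adj = 2.0e-04), and Syngr, a vesicle membrane protein, at 319, 335 and 338 CPM at 3d and 247, 248 and 262 CPM at 20d (log2 fold change -0.39 ± 0.05, p_adj = 9.3e-05). The vesicle chaperone gene Csp (-0.36), the syntaxin binder Rop (-0.36), comt, the fly NSF ATPase (-0.34), and Snap25 (-0.24) fell by smaller amounts. The presynaptic calcium channel gene cac (0.26) and the active zone scaffold gene Liprin-alpha (0.20), both long genes, rose, and after length correction neither was called while 15 genes fell. Of 53 tested cell surface proteins of the Dpr, DIP, beat and side families, which match synaptic partners, 12 rose and 3 fell, led by side-II (log2 fold change 0.42 ± 0.07, p_adj = 7.8e-04) and DIP-eta (log2 fold change 0.38 ± 0.06, p_adj = 9.6e-04). After length correction 4 of them were called higher and 5 lower. Without both first libraries 3 were called higher, and the number with single libraries left out was 4 without 20d library 1, 5 without 3d library 1 and 7 without 3d library 2 or 20d library 3. The 10 nicotinic acetylcholine receptor subunits held a single call, nAChRbeta3 (log2 fold change 0.56 ± 0.17, p_adj = 0.027, the ages overlapping). Of 15 tested GABA and glutamate receptors, 2 rose (KaiR1D and GluRIB) and 2 fell (13.3% each). These shares were close to the 11.3% and 13.3% of all genes. The fall of Grd was the larger (log2 fold change -0.59 ± 0.09, p_adj = 4.3e-04), and after length correction 1 receptor rose and 3 fell. Of 24 channels, 4 rose and 4 fell (16.7% each), from -0.25 for Hk, a beta subunit of Shaker channels, to 0.41 for Elk. After length correction 1 channel gene rose and 7 fell, and without both first libraries 0 and 4. With single libraries left out the channel rises numbered 1 without 3d library 1 or 20d library 3 and 2 without 3d library 2 or 20d library 1, and the falls 2 without 3d library 3, 20d library 2 or 20d library 3. The calcium sensor gene Cam, in the list of learning genes, was at 5207, 5744 and 5789 CPM at 3d and 3667, 4710.2 and 4048 CPM at 20d (log2 fold change -0.43 ± 0.11, p_adj = 0.01). With single libraries left out, p_adj rose above 0.05 for cac (p_adj up to 0.1) without any library except 3d library 3 and 20d library 2, for Liprin-alpha (p_adj up to 0.078) without 3d library 1, or 20d library 1 or 3, for nAChRbeta3 (p_adj up to 0.098) without any library except 3d library 1 and 20d library 1 and for GluRIB (p_adj up to 0.16) without any library except 20d library 2. In the length-corrected fit cac, Liprin-alpha and GluRIB no longer passed. The fit without both first libraries ended the call of Snap25, KaiR1D and Elk.

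Genes of monoamine synthesis and transport gave 4 rises and 4 falls among 15 tested (26.7% each, against 11.3% and 13.3% of all genes). The cofactor enzymes Pu, the GTP cyclohydrolase of tetrahydrobiopterin synthesis, and pr fell. Pu was at 59.8, 68.2 and 68.9 CPM at 3d and 31.4, 44.5 and 38.2 CPM at 20d (log2 fold change -0.79 ± 0.19, p_adj = 0.015), and pr at 47.8, 45.9 and 40.1 CPM at 3d and 27.1, 31.3 and 24.0 CPM at 20d (log2 fold change -0.70 ± 0.09, p_adj = 1.4e-04). Some enzymes that make the amines rose, namely Tdc1, a tyrosine decarboxylase (log2 fold change 1.00 ± 0.23, p_adj = 0.0064), Tbh, which converts tyramine to octopamine (log2 fold change 0.46 ± 0.09, p_adj = 0.0019), and Trhn, the neuronal tryptophan hydroxylase (0.30), as did the vesicular transporter gene Vmat (0.36). The genes e (-0.27) and AANAT1 (-0.39), whose products conjugate released amines, fell. The dopamine synthesis genes ple (-0.20) and Ddc (0.20) were not called. Among 17 monoamine receptors, Dop1R2, a dopamine receptor needed for forgetting (log2 fold change 0.48 ± 0.10, p_adj = 0.0041), and 5-HT7 (log2 fold change 0.23 ± 0.07, p_adj = 0.036) rose. They were 11.8% of the receptors, close to the 11.3% of all genes. The call was lost for Pu (p_adj up to 0.056) without 20d library 1 or 3, for Trhn (p_adj up to 0.12) without any library except 20d library 2, for Vmat (p_adj up to 0.062) and 5-HT7 (p_adj up to 0.13) without any library except 3d library 2 and 20d library 2 and for e (p_adj up to 0.066) without 3d library 2 or 20d library 3. After length correction Vmat and 5-HT7 missed the threshold. With both first libraries left out, Dop1R2 no longer passed.

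Transporter and enzyme genes of glia fell, and the cortex glia gene wrapper rose. The 8 glial markers summed to 4411 to 5092 CPM at 3d and 3815 to 3896 CPM at 20d, without overlap. Of 13 tested genes of astrocyte-like and cortex glia, 5 fell and 1 rose. Eaat1, the glutamate transporter, was at 867, 772 and 918 CPM at 3d and 471, 541 and 539.8 CPM at 20d (log2 fold change -0.72 ± 0.07, p_adj = 1.8e-05). Gat, the GABA transporter, was at 564, 534 and 633 CPM at 3d and 377, 418 and 401 CPM at 20d (log2 fold change -0.53 ± 0.07, p_adj = 1.0e-04), and Gs2, the glutamine synthetase that disposes of the glutamate taken up, at 2861, 2486 and 2854 CPM at 3d and 1950.0, 1993 and 1954 CPM at 20d (log2 fold change -0.48 ± 0.06, p_adj = 1.8e-04). nrv2, a glial beta subunit of the sodium pump, fell (log2 fold change -0.67 ± 0.06, p_adj = 1.7e-05) and alrm, an astrocyte marker, by less (log2 fold change -0.27 ± 0.07, p_adj = 0.01). The cortex glia gene wrapper rose (log2 fold change 0.49 ± 0.08, p_adj = 5.3e-04), and repo, the transcription factor common to most glia, was at 99.96, 105 and 110.1 CPM at 3d and 119, 105 and 119 CPM at 20d (log2 fold change 0.12 ± 0.06, p_adj = 0.15). At the blood-brain barrier, the transporter gene Mdr65 (log2 fold change -0.39 ± 0.05, p_adj = 5.3e-05) and bdl (-0.49) fell, and Tsf1, which encodes the iron carrier transferrin, was at 2198, 2306 and 1903 CPM at 3d and 2869, 3279 and 3111 CPM at 20d (log2 fold change 0.53 ± 0.09, p_adj = 0.0012). Mdr50, a transporter of the same family as Mdr65, was low, at 0.377, 0.446 and 0.379 CPM at 3d and 1.94, 1.93 and 2.87 CPM at 20d (log2 fold change 2.47 ± 0.32, p_adj = 1.4e-04). Among 5 tested innexins, which form gap junctions, Inx2 (log2 fold change -0.70 ± 0.05, p_adj = 4.0e-06), Inx3 (-0.38) and ogre (-0.36) fell, and the count was 3 with each library left out. In leave-one-out fits the threshold was missed for alrm (p_adj up to 0.051) without 20d library 3.

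Most called genes of the basement membrane around the brain fell, among them genes of collagen IV, perlecan and laminin. Of 15 tested matrix genes, 7 fell and 3 rose. Col4a1, a collagen IV chain, was at 245, 234 and 312 CPM at 3d and 116, 135 and 137 CPM at 20d (log2 fold change -1.03 ± 0.10, p_adj = 2.2e-05). Its partner chain vkg was at 262, 259 and 328 CPM at 3d and 181, 195 and 191 CPM at 20d (log2 fold change -0.58 ± 0.08, p_adj = 2.5e-04). trol, the fly perlecan, was at 586, 583 and 691 CPM at 3d and 415, 340.2 and 367 CPM at 20d (log2 fold change -0.73 ± 0.08, p_adj = 4.3e-05). For each of them every 20d library lay below every 3d library. The laminin subunits LanB1 (-0.56), LanA (-0.52) and LanB2 (-0.37) fell less. The rises were in Mp, a collagen XV and XVIII relative (log2 fold change 0.70 ± 0.06, p_adj = 8.4e-06), the protease gene Mmp1 (0.48) and its inhibitor Timp (0.26). Between 5 and 7 matrix genes were called lower with each library left out, and 7 after length correction. Without both first libraries 5 were called lower and 1 higher. Summed markers of trachea and haemocytes were also lower. The 4 tracheal markers summed to 13.3 to 16.1 CPM at 3d and 6.25 to 8.66 CPM at 20d, and verm (log2 fold change -1.63 ± 0.22, p_adj = 1.8e-04), Gasp (-1.16) and obst-A (-1.05), genes of the chitinous lining, fell. The 8 haemocyte markers summed to 409 to 474 and 289.9 to 381 CPM, with falls called for PPO1 and PPO2 (-0.84) among 7 tested by edgeR, 4 without 20d library 2 and 4 with DESeq2. Haemocytes and fat body also make collagen IV, and the part of their RNA in the matrix genes was not tested. Leave-one-out fits gave p_adj above 0.05 for LanB2 (p_adj up to 0.14) without any library except 20d library 3, for Mmp1 (p_adj up to 0.14) without any library except 20d library 1 and for Timp (p_adj up to 0.068) without 3d library 2 or 3, or 20d library 1. Length correction ended the call of Mmp1. Without both first libraries Gasp and obst-A missed the threshold. The number of matrix genes that rose was 1 without 3d library 2 or 3d library 3.

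Immune and heat shock genes set the 20d libraries apart from each other. Of 31 tested antimicrobial peptide genes only BaraA1 was called (log2 fold change 1.05 ± 0.32, p_adj = 0.03), although the median log2 fold change of the list was 0.58, and the number called was 0 without 3d library 3, 20d library 2 or 20d library 3, 2 without 3d library 1 or 3d library 2 and 3 without 20d library 1. Dro, which encodes drosocin, was at 1.78, 21.8 and 2.66 CPM at 3d and 6.32, 76.7 and 50.4 CPM at 20d (log2 fold change 2.34 ± 1.09, p_adj = 0.16), and AttC at 3.397, 36.9 and 9.77 CPM at 3d and 8.81, 95.1 and 91.6 CPM at 20d (log2 fold change 1.96 ± 1.04, p_adj = 0.22). Both were high in 3d library 2 and in 20d libraries 2 and 3, and the groups overlapped. Mtk (3.77, 18.9 and 7.396 CPM at 3d and 4.55, 57.4 and 32.3 CPM at 20d) had the same order of high libraries. Among small heat shock proteins, Hsp26 was at 11.7, 6.20 and 6.543 CPM at 3d and 10.4, 271 and 278 CPM at 20d (log2 fold change 4.52 ± 1.57, p_adj = 0.072). The inducible Hsp70 relative Hsp68 was at 13.6, 10.2 and 7.59 CPM at 3d and 23.9, 359 and 747 CPM at 20d (log2 fold change 5.18 ± 1.71, p_adj = 0.06). In both, 20d library 1 lay near or within the 3d range and the other 20d libraries stood far above it. Hsp70Bc was highest in 20d library 2, at 2.16, 2.97 and 0.901 CPM at 3d and 1.90, 46.3 and 9.73 CPM at 20d, and may share reads with its near-identical copies. The constitutive Hsp83 was at 813, 632 and 357 CPM at 3d and 603, 480.1 and 985 CPM at 20d (log2 fold change 0.20 ± 0.35, p_adj = 0.72). With edgeR, CG4461 (log2 fold change 2.10 ± 0.68, p_adj = 0.039) and CG7409 rose and Hsp67Ba fell among 10 small heat shock genes. In the list of 17 larger chaperones and related genes, Droj2 (-0.39) fell. The only rise in that list was in Hsf (0.18), which encodes a transcription factor and not a chaperone. DESeq2 called 5 small heat shock genes higher and 2 lower, and 5 members of the list of larger chaperones and related genes higher and 1 lower. The number of small heat shock genes that rose was 0 without 3d library 1, 3d library 3 or 20d library 3, and of those that fell 2 without 3d library 2 or 20d library 3. Of 32 tested genes of the Toll and Imd pathways, 2 rose and 2 fell (6.25% each, against 11.3% and 13.3% of all genes). The NF-kappaB gene dl (0.42) and the caspase gene Dredd (0.31) rose, and the peptidoglycan receptors PGRP-LC (-0.46) and PGRP-LE (-0.33) fell. With each library left out, 0 to 5 were called higher and 0 to 2 lower. Significance was lost for BaraA1 (p_adj up to 0.11) without any library except 20d library 1, for CG4461 (p_adj up to 0.2) without 3d library 1 or 3, or 20d library 3, for CG7409 (p_adj up to 0.17) without any library except 3d library 2 and 20d library 1, for Hsf (p_adj up to 0.11) without any library except 3d library 1 and 20d library 2, for dl (p_adj up to 0.098) and Dredd (p_adj up to 0.12) without 3d library 1 or 2, or 20d library 3, for PGRP-LC (p_adj up to 0.15) without any library except 20d library 2 and for PGRP-LE (p_adj up to 0.078) without 3d library 3 or 20d library 3. In the length-corrected fit dl no longer passed.

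**Figure D5:**
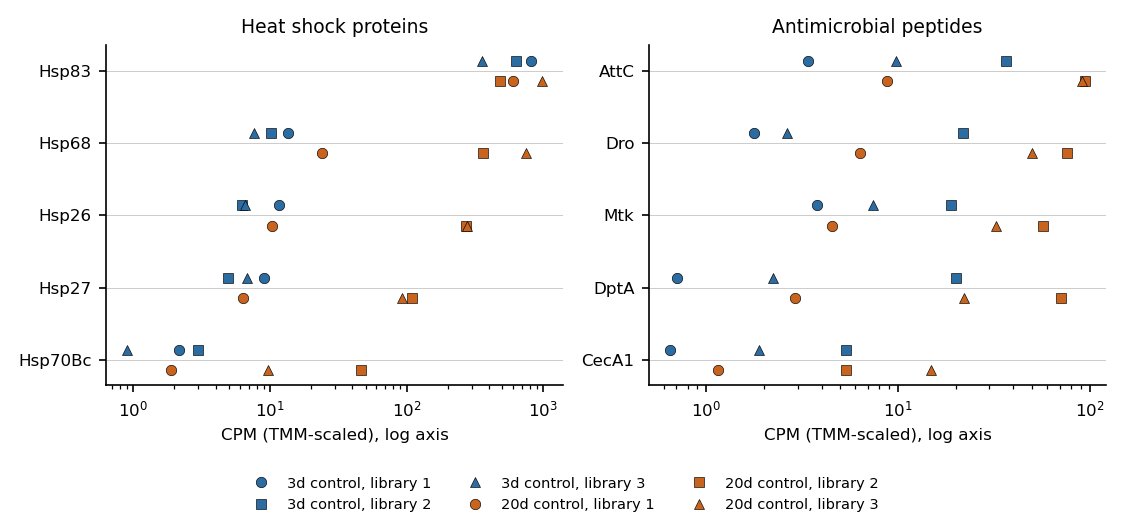
TMM-scaled CPM (log axis) of heat shock protein genes (left) and antimicrobial peptide genes (right) in each 3d (blue) and 20d (orange) control library of set 1, with the library number given by the marker shape (circle 1, square 2, triangle 3). For Hsp68, Hsp26 and Hsp27, 20d libraries 2 and 3 stand well above 20d library 1, and for the peptides 3d library 2 lies above the other 3d libraries, and none of the plotted genes was called.

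Genes of DNA repair and replication were among those that rose. Of 18 tested genes of the DNA damage response, 6 rose (33.3%, against 11.3% of all genes). rad50, of the complex that senses double-strand breaks, was at 21.4, 24.1 and 23.7 CPM at 3d and 43.2, 35.8 and 36.2 CPM at 20d (log2 fold change 0.74 ± 0.08, p_adj = 3.9e-05). Xrp1, a bZIP factor induced by damage and by ribosomal protein loss, was at 276, 316 and 311 CPM at 3d and 377, 520.0 and 509.9 CPM at 20d (log2 fold change 0.64 ± 0.16, p_adj = 0.014), and Irbp, the fly Ku70 of DNA end joining, rose by 0.57. Among the others, mus304 (0.56) and Gadd45 (0.48) rose as well. Between 4 and 6 of these were called with each library left out, 6 after length correction. Among 27 cell cycle and replication genes, 5 rose (18.5%, against 11.3% of all genes), 2 without 3d library 3 and 3 without 3d library 1, with both ribonucleotide reductase subunits, RnrL (log2 fold change 0.61 ± 0.18, p_adj = 0.025) and RnrS (log2 fold change 0.83 ± 0.28, p_adj = 0.045, the ages overlapping), and Rbf, which restrains the cycle (0.35). The piwi-class Argonaute genes, known best from germline transposon defence, were low and rose. AGO3 was at 0.431, 0.892 and 0.522 CPM at 3d and 1.49, 1.79 and 2.06 CPM at 20d (log2 fold change 1.52 ± 0.39, p_adj = 0.013), and piwi at 3.02, 1.93 and 2.13 CPM at 3d and 4.30, 4.66 and 3.72 CPM at 20d (log2 fold change 0.84 ± 0.25, p_adj = 0.025), and aub rose by 0.63. Leaving out single libraries ended the call for Xrp1 (p_adj up to 0.06) without 3d library 1 or 20d library 3, for Irbp (p_adj up to 0.12) without any library except 20d library 1, for mus304 (p_adj up to 0.054) without 3d library 2, for Gadd45 (p_adj up to 0.074) without 3d library 3 or 20d library 2, for RnrL (p_adj up to 0.13) without any library except 20d library 1 and 20d library 2, for RnrS (p_adj up to 0.16) without any library except 3d library 2 and 20d library 3, for AGO3 (p_adj up to 0.067) without 3d library 1 or 3, or 20d library 3 and for piwi (p_adj up to 0.094) without any library except 3d library 1 and 20d library 3. The fit without both first libraries ended the call of aub.

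Detoxification and metal genes changed in both directions, and some genes of sugar breakdown rose. Of 68 tested cytochrome P450 genes, 10 rose (14.7%) and 6 fell (8.82%), against 11.3% and 13.3% of all genes. The number that rose was 5 without 3d library 2 or 20d library 2. The median log2 fold change of this list was 0.04. Cyp4d1 was at 0.162, 0.198 and 0.237 CPM at 3d and 0.744, 0.895 and 0.673 CPM at 20d (log2 fold change 1.91 ± 0.35, p_adj = 0.0017), and Cyp4ae1 at 10.3, 10.4 and 12.4 CPM at 3d and 5.54, 4.70 and 3.95 CPM at 20d (log2 fold change -1.22 ± 0.14, p_adj = 5.1e-05). Cyp18a1, the enzyme that inactivates ecdysone, was at 9.60, 9.37 and 10.2 CPM at 3d and 3.35, 5.999 and 4.80 CPM at 20d (log2 fold change -1.05 ± 0.17, p_adj = 6.0e-04). In the same hormone pathway, the receptor-induced gene Eip75B rose (log2 fold change 0.39 ± 0.07, p_adj = 9.9e-04). Among glycosyltransferases Ugt50B3 had the largest rise (log2 fold change 2.23 ± 0.26, p_adj = 5.8e-05). Of 11 tested genes that break down starch and sugars, 5 rose (2 without 3d library 1, 3d library 3 or 20d library 2 and 3 without 20d library 3, and 7 with DESeq2), among them the trehalase gene Treh, at 341, 330.3 and 386 CPM at 3d and 710.5, 583 and 605 CPM at 20d (log2 fold change 0.84 ± 0.12, p_adj = 4.4e-04). Of 18 antioxidant genes, 5 fell (27.8%, against 13.3% of all genes) and 2 rose (11.1%, against 11.3%), and 3 and 1 after length correction. Sod2, the superoxide dismutase of mitochondria, was at 136, 124 and 131 CPM at 3d and 87.3, 99.5 and 86.0 CPM at 20d (log2 fold change -0.52 ± 0.07, p_adj = 1.0e-04), Sod1, its cytosolic counterpart, fell by less (log2 fold change -0.37 ± 0.06, p_adj = 1.0e-03), and catalase (Cat, -0.50) fell. Prx4, the peroxiredoxin of the endoplasmic reticulum, rose (log2 fold change 0.49 ± 0.14, p_adj = 0.02). Of 26 metal genes, 5 fell (19.2%) and 3 rose (11.5%), with a median of 0.01. Among these, fh, the fly frataxin of iron-sulfur cluster assembly, fell (log2 fold change -0.69 ± 0.12, p_adj = 8.5e-04), and the zinc transporter gene ZnT77C fell most (-1.06). The lipase gene bmm (log2 fold change 0.56 ± 0.17, p_adj = 0.042) and SREBP (0.36), a regulator of fatty acid synthesis genes, and its escort gene SCAP (0.19) rose among 21 lipid genes, of which 4 were called higher, 0 without 3d library 1 or 20d library 2, 1 without 3d library 2, 3d library 3 or 20d library 3 and 7 without 20d library 1, and 1 after length correction. With single libraries left out, p_adj rose above 0.05 for Cat (p_adj up to 0.13) without any library except 20d library 2, for Prx4 (p_adj up to 0.082) without 3d library 1 or 3, or 20d library 2, for ZnT77C (p_adj up to 0.11) without any single library, for bmm (p_adj up to 0.14) without any library except 20d library 1, for SREBP (p_adj up to 0.11) without any library except 3d library 3 and 20d library 1 and for SCAP (p_adj up to 0.15) without any library except 20d library 3. After length correction Cat, SREBP and SCAP missed the threshold.

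Phototransduction genes, most of them expressed in the eye, fell in part. Of 29 tested, 9 fell (median -0.33). The 12 photoreceptor markers, several in both lists, had a similar median of -0.34, with 10 of them negative. Their summed level overlapped between the ages. Apart from ninaD, the largest fall was in Gbeta76C, the beta subunit of the eye's G protein, at 718, 971 and 833 CPM at 3d and 335, 577 and 365 CPM at 20d (log2 fold change -0.98 ± 0.28, p_adj = 0.035). Its gamma partner Ggamma30A (-0.38), the diacylglycerol kinase gene rdgA (log2 fold change -0.49 ± 0.14, p_adj = 0.026) and the rhodopsin phosphatase gene rdgC (-0.40) fell less. The main rhodopsin gene ninaE was at 19289, 27193 and 22369 CPM at 3d and 15627, 26792 and 17407 CPM at 20d (log2 fold change -0.20 ± 0.32, p_adj = 0.69). The number of falls was 2 without 3d library 2 or 20d library 3, 4 without 3d library 3 or 20d library 1 and 14 without 20d library 2. The call was lost for Gbeta76C (p_adj up to 0.11) without any library except 20d library 2 and for rdgA (p_adj up to 0.095) and rdgC (p_adj up to 0.12) without any library except 3d library 1 and 20d library 2.

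Genes of autophagy, TOR signalling and histone H3 methylation, processes that bear on the study, gave calls in part. Atg8a, whose product forms autophagosomes, was at 528, 533 and 528 CPM at 3d and 393, 453 and 412 CPM at 20d (log2 fold change -0.34 ± 0.06, p_adj = 0.0017), and ref(2)P, the fly p62 that carries ubiquitinated protein to them, at 224, 215 and 199.8 CPM at 3d and 259, 250.1 and 274 CPM at 20d (log2 fold change 0.30 ± 0.06, p_adj = 0.0031). The directions of these transcripts were opposite. Of 29 tested autophagy genes 3 rose (10.3%) and 4 fell (13.8%), close to the 11.3% and 13.3% of all genes. After length correction 2 rose and 2 fell. Mitf, a regulator of lysosomal genes, had the largest rise (log2 fold change 0.50 ± 0.08, p_adj = 7.3e-04). Lst8, a subunit of the TOR complexes, was at 12.6, 11.2 and 12.4 CPM at 3d and 12.9, 12.9 and 12.2 CPM at 20d (log2 fold change 0.07 ± 0.09, p_adj = 0.6). Other genes of this nutrient-sensing pathway rose, 5 of 19 tested (26.3%, against 11.3% of all genes). Among them were Iml1, which inhibits TORC1 (log2 fold change 0.41 ± 0.13, p_adj = 0.04), and raptor, which defines it (log2 fold change 0.37 ± 0.07, p_adj = 0.003). The number of rises was 3 without 3d library 3, 20d library 1 or 20d library 3. It was 3 after length correction and 1 without both first libraries. The PRC2 genes, which methylate histone H3 at lysine 27, were not called, with E(z) at 0.18, Su(z)12 at 0.15 and Pcl at 0.10 on the log2 scale. The demethylase gene Utx (log2 fold change 0.07 ± 0.08, p_adj = 0.56) and the ecdysone-induced gene Eip74EF (log2 fold change -0.02 ± 0.07, p_adj = 0.84) were not called either. Trithorax group genes trx (log2 fold change 0.52 ± 0.07, p_adj = 2.1e-04) and ash1 (log2 fold change 0.51 ± 0.10, p_adj = 0.0027), both long, rose. lncRNA:CR43459 (FBgn0263413, 3R, 10093761 to 10101356, plus strand in the Ensembl release 115 annotation of build BDGP6.54), whose exons contain mir-34 and mir-277, was at 10.4, 9.42 and 8.63 CPM at 3d and 17.98, 15.6 and 19.1 CPM at 20d (log2 fold change 0.89 ± 0.10, p_adj = 4.3e-05). The microRNAs themselves were not measured. In leave-one-out fits the threshold was missed for Iml1 (p_adj up to 0.13) without any library except 3d library 2. Length correction ended the call of Iml1.

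Among genes called in either direction, the highest levels per kilobase of exon belonged to few genes. mt:lrRNA (46516 CPM per kb), lncRNA:noe (15594), mt:CoI (11893), mt:CoIII (10406) and lncRNA:CR34335 (8342) fell, with log2 fold changes of -0.46 for lncRNA:noe and -0.49 for lncRNA:CR34335. CG15201 (1044 CPM per kb), Tsf1 (915), CG9686 (869), sta (744) and IA-2 (681) rose. IA-2, a dense core vesicle protein of peptidergic cells, was at 4863, 5352 and 5138 CPM at 3d and 9642, 7661 and 9246 CPM at 20d (log2 fold change 0.79 ± 0.09, p_adj = 5.4e-05). Of 300 tested long noncoding RNAs 26 rose (8.67%) and 25 fell (8.33%), and the X chromosome dosage compensation RNAs lncRNA:roX2 (log2 fold change -0.98 ± 0.11, p_adj = 5.2e-05) and lncRNA:roX1 (-0.31) fell while msl-2, whose protein acts with them, rose (0.27). lncRNA:let7C, the precursor of the let-7 complex microRNAs, was at 2.48, 1.39 and 1.71 CPM at 3d and 3.97, 4.75 and 4.13 CPM at 20d (log2 fold change 1.21 ± 0.20, p_adj = 8.9e-04). Of 1662 genes tested on the X chromosome 13.1% rose and 12.7% fell, close to the shares on the autosomal arms, and the small chromosome 4 had 13.3% up and 20.4% down among 98 genes. Leave-one-out fits gave p_adj above 0.05 for CG9686 (p_adj up to 0.13) without any library except 3d library 1 and 20d library 1. With both first libraries left out, msl-2 no longer passed.

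The same ages were compared in the control brains of set 2, which are other pools with larger libraries. There 2029 genes rose (19.3% of 10525 tested) and 2098 fell (19.9%), together 39.2%. Of 1122 genes upregulated in set 1 and tested in both sets, 545 were upregulated in set 2 (48.6% of the set 1 list and 27.9% of the 1956 in set 2), and 13 were downregulated. Of 1326 downregulated genes, 948 were downregulated in set 2 (71.5% and 45.8% of 2072), and 5 were upregulated. The difference between these shares was not tested. Ribosomal proteins of the cytoplasm rose in set 2, 66 of 83, as did 25 of 32 proteasome subunits, all 8 chaperonin subunits and 19 of 33 antimicrobial peptides. Synaptic vesicle genes gave falls in set 2 for 26 of 29, and the Dpr, DIP, beat and side proteins gave 34 falls and 1 rise there. Unlike counts in the sets are not in themselves a difference, for which the test is given next.

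The difference between the changes of both sets was tested in a single fit of the 12 libraries. The signed log2 change was higher in set 1 for 311 genes (3.04% of 10221 tested) and lower for 144 (1.41%). Together these were 4.45%, all with p_adj of at least 0.027. A higher signed change can be a smaller fall, so these counts do not rank the size of the changes. Of the 311, 204 were called lower in set 2 and not called in set 1, 54 were called lower in both, and 13 were called in opposite directions. These counts depended on single libraries. The 311 became 0 without 3d library 1, 3d library 2, 20d library 1 or 20d library 3 of set 1, 49 without 3d library 3 and 701 without 20d library 2, and also 0 without 3d library 2, 3d library 3, 20d library 1 or 20d library 2 of set 2. Without 3d library 1 and 20d library 3 of set 2 it was 216 and 303. The 144 moved between 0 and 513, the highest without 20d library 2 of set 1. After length correction 184 and 86 genes differed. In a single draw of simulated counts for this test, with few genes changed, 12.5% of the 56 calls were of unchanged genes. There 53.3% of 2-fold, 22.9% of 1.5-fold and 1.43% of 1.3-fold differences were recovered. Among synaptic vesicle genes the difference was called for 15 of 29, all with the change in set 1 above that in set 2, and for 9 after length correction. For the Dpr, DIP, beat and side proteins it was 11 of 53, also above, and 4 after correction. With set 1 below, the difference was called for 13 of 83 cytoplasmic ribosomal proteins and 4 of 32 proteasome subunits (6 and 1 after correction). Of 8 chaperonin subunits and 31 antimicrobial peptides, 0 differed. Obp56d fell in set 1 and was not called in set 2, where it was at 8.86, 20.6 and 13.4 CPM at 3d and 10.5, 36.6 and 18.2 CPM at 20d (difference -4.42 ± 0.98, p_adj = 0.045). CG11368 (difference -4.62 ± 0.95, p_adj = 0.038) and Yp3 (difference -1.82 ± 0.26, p_adj = 0.027) also fell in set 1 and were not called in set 2. Genes with the lowest p in the other direction included EndoB, an endophilin, at 147, 148 and 147 CPM at 3d and 119, 114 and 119.6 CPM at 20d in set 1 and 165, 163 and 172 CPM at 3d and 98.2, 99.0 and 101 CPM at 20d in set 2 (difference 0.42 ± 0.07, p_adj = 0.027), Proc (difference 0.50 ± 0.08, p_adj = 0.027), CG42700 (difference 0.56 ± 0.09, p_adj = 0.027), CG10513 (difference 0.83 ± 0.13, p_adj = 0.027) and CG44098 (difference 0.76 ± 0.12, p_adj = 0.027). Tis11, which binds AU-rich elements and destabilises mRNA (difference -0.79 ± 0.12, p_adj = 0.027), spz, the Toll ligand (difference -0.77 ± 0.12, p_adj = 0.027), Ostgamma (difference -0.66 ± 0.10, p_adj = 0.027), Sec61beta (difference -0.64 ± 0.10, p_adj = 0.027) and CG5535 (difference -1.50 ± 0.25, p_adj = 0.027) had a lower change in set 1. CG42700, CG44098, Ostgamma and spz overlap exons of genes on the opposite strand, as do Lst8, E(z) and ref(2)P, and without a known strand setting their reads cannot be assigned with certainty.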

How the data were processed

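The authors aligned the reads with HISAT2 to the fly genome, counted them per gene of the FlyBase annotation with HTSeq and deposited 1 table of whole-number counts for all 21 libraries; the strand setting is not given in the sources used here. Library preparation was TruSeq Stranded with polyA selection. From these counts, all 12 libraries of set 1 (4 groups of 3, the mutants included) were fitted together with edgeR 4.0.16 in R 4.3.3 (TMM, filterByExpr with a minimum count of 10, robust quasi-likelihood F test, Benjamini-Hochberg p_adj under 0.05), and the contrast of 20d against 3d controls was tested. The 9 libraries of set 2 were fitted in the same way, and the difference between sets was tested on the 12 control libraries of 3d and 20d. SE was the log2 fold change divided by the square root of F. P-values measure the spread between pools of brains. Figures were drawn with matplotlib 3.10.9, and exon lengths and positions came from the Ensembl release 115 annotation of BDGP6.54.

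Alternatives were DESeq2 1.42.0, RLE size factors, other filters, the 6 control libraries alone, a replicate block, stricter thresholds, leaving out the mitochondrial genome or each library in turn, and, added after the data were seen, correction of each library for its trend with exon length (lowess) and leaving out both libraries at the ends of that trend. The fit was tested on simulated counts.

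Named genes were the 12 largest rises and 12 largest falls among calls without overlap between ages (mean log2 CPM of 2 or more), the extreme called and the defining members of the lists described, genes of pathways the study examined, the 5 lowest p-values of the difference between sets in each direction, and the 5 highest levels per kilobase called in each direction. Genes named in counts of 5 or fewer, and Arc2, Hr38, Hsp70Bc, msl-2 and porin, were chosen after their values were seen. The comparison, the lists and the markers were chosen with earlier results of these data known.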

Additional observations from a re-analysis of the deposited data

Results flagged for a closer look

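The change from 3d to 20d differed between set 1 and set 2 for 311 genes with the set 1 change above and 144 with it below (edgeR, difference of the changes tested in a single fit). Both counts fell to 0 when 3d library 1 of set 1 was left out, and the calls given here were made with all libraries kept. Values are the log2 change in set 1 minus that in set 2, with p_adj from 0.027 to 0.045. Among genes described above, the change in set 1 was lower for CG11368 (-4.62), Obp56d (-4.42), Yp3 (-1.82), CG5535 (-1.50), Tis11 (-0.79), spz (-0.77), Ostgamma (-0.66), Sec61beta (-0.64), lncRNA:CR34335 (-0.58), CG15201 (-0.46) and CG9686 (-0.44). It was higher for the synaptic genes Csp (0.35), Syngr (0.39), comt (0.40) and cac (0.47), and for the endophilin gene EndoB (0.42). The channel genes Hk (0.39) and Elk (0.60), the dopamine receptor gene Dop1R2 (0.55) and the peptide precursors Proc (0.50) and SIFa (0.62) also lay higher. Matrix genes did so as well, with vkg at 0.55, trol at 0.59 and Col4a1 at 0.72, meaning a smaller fall in set 1. The others were Hsp67Ba (0.39), Gat (0.51), CG42700 (0.56), rdgA (0.70), CG44098 (0.76) and CG10513 (0.83).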

How the results depend on the processing

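Against 1124 genes higher and 1327 lower in set 1, the fit of the 6 control libraries alone gave 743 higher, p_adj under 0.01 gave 458 and 711, a change of at least 1.5-fold gave 297 and 305, and leaving out 3d library 1 and 20d library 1 together gave 476 and 768. With single libraries left out the counts ran from 651 to 1204 and from 883 to 1319. In set 2, 1249 genes were higher at p_adj under 0.01, and 863 were higher and 563 lower by at least 1.5-fold. Genes called in the same direction in both sets numbered 234 and 529 at p_adj under 0.01 and 192 and 203 at 1.5-fold. For the difference between sets (311 above and 144 below), DESeq2 called 713 and 346, the length-corrected fit 184 and 86, the 1.5-fold limit 50 and 66, and p_adj under 0.01 gave 0 and 0. Leaving out single libraries gave 0 to 701 and 0 to 513.

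A replicate block in the fit gave 1142 genes higher and 1367 lower in set 1, with 2325 genes shared, and the difference between sets was called above for 201. The block called 4 of 31 antimicrobial peptides higher (1 without it) and 5 of 7 haemocyte markers lower (2 without it). Libraries of the same number at 3d and 20d correlated in their deviations by 0.168, 0.0644 and -0.0388, and those of different numbers by -0.186 to 0.162. The titles give only a number, and whether libraries of the same number shared a batch was not tested. Of 191 named genes that were called, 121 kept the call under every alternative, 135 with each library left out, and 177 after length correction; none changed sign. Directions of uncalled genes reversed. Utx was at -0.0032 after length correction and -0.036 without both first libraries, and Sec61beta at 0.12 and 0.0095, with -0.068 to 0.010 over single libraries left out. Eip74EF ran from -0.057 to 0.024, Hr38 from -0.58 to 2.01 and Hsp83 from -0.15 to 0.48. The cause of these changes was not tested.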
